A study of Megathyrsus maximus with 33 samples.

Results

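Among the 39208 transcripts measured in leaves of Guinea grass, 100 were examined whose log2 values were low on average at the later sampling (time point B, labelled 50 days) and higher at the earlier one (time point A, labelled 30 days). They were selected on their own values. The log2 value of 16025 transcripts averaged below 0 over the 16 libraries of time point B, where 0 stands for 1 read per 1000000, and of these the 100 with the most negative mean difference of B minus A over the 16 plots were kept. A member can thus exceed that level in single plots. Because that difference chose them, it is described here without a test, and for the 100 the tests below concern differences between treatments within a time point, between rings, and between treatments in the change over time, while the selection used the change averaged over all plots. Tests of B against A are given only for transcripts outside the set.

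Guinea grass, a perennial forage grass of tropical pastures, was grown in an open field in 16 plots, and the same plots were sampled at both time points. In eCeT plots the [CO2] was raised by free-air enrichment and the canopy was warmed by infrared heaters. In eT plots the canopy was warmed at ambient [CO2], in eC plots only the [CO2] was raised, and C plots were the ambient control. Each treatment had 4 plots, labelled as rings 1 to 4, so the 2 time points gave 8 groups of 4 and 32 libraries of the youngest fully expanded leaf, pooled from several leaves of a plot. Whether plots of different treatments with the same ring number shared a place in the field is not given in the sources used here. Replicates were separate plots of 1 field in 1 season. Plant age, date and weather changed together with the time point and cannot be told apart from it, and the sources used here give different dates for time point B.

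A leaf does not keep 1 set of transcripts. As plants age and as temperature, light and microbes around them vary, genes of defence, of detoxification and of specialised metabolism, the making of terpenes, phenolics and other compounds outside basic growth, can be transcribed strongly in one state and hardly at all in another, while the genes of photosynthesis stay abundant. Guinea grass has no reference genome in these data: its transcripts were assembled from the reads themselves, and each is named by its component, a cluster of related sequences, and by a number within it (c65859_g1). Names of genes come from matches to Arabidopsis in the study's annotation and exist for few of the 100.

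The libraries held 6148491 to 15638548 recovered reads, 10208385 to 15638548 at time point B and 6148491 to 12561618 at time point A, with the lowest depth in eT ring 3 at time point A. Over all transcripts other than the 100, the 32 libraries of 32 lay nearer to the mean of their own time point than to that of the other. Summed over 5 transcripts annotated to photosynthesis, the level was 380 to 655 reads per 1000000 of the scaled library size (CPM) at time point B and 467 to 925 CPM at time point A, as a check of the tissue. A level here is relative to the library, so fewer cells that make a transcript and less of it per cell cannot be told apart.

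**Figure D1:**
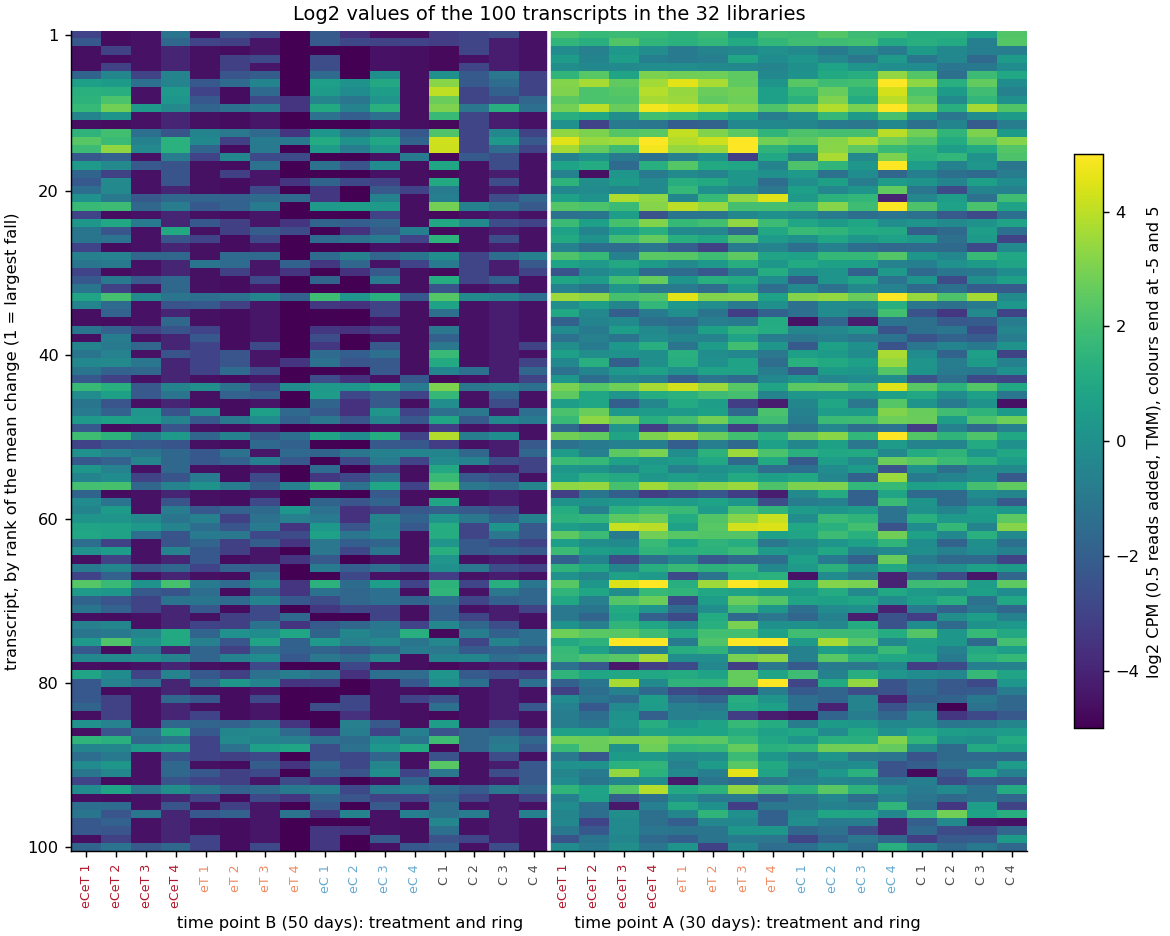
Log2 value of each of the 100 transcripts (rows, ordered by the mean difference of B minus A, the most negative on top) in each of the 32 libraries (columns, time point B on the left, time point A on the right, by treatment and ring). The columns of time point B are mostly dark; the brightest are C ring 1, eCeT ring 2 and eCeT ring 1, with median log2 values of −0.59, −0.97 and −1.11, and the top rows stay dark in C ring 1 too.

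The mean difference of B minus A ran from −5.15 to −2.36 on the log2 scale, with a median of −2.76, against a median of 0.05 over all 39208 transcripts. The size depends on the 0.5 reads added before the logarithm, and with 5 reads added the median of the 100 was −1.50. Over the 16 plots the SD of a transcript's difference was 1.83 at the median. Of the 100, 30 were lower at time point B in all 16 plots, and 701 of all transcripts, 1.79%, were so. Another 48 were lower in 15 plots (in 15 or 16 plots 5.18% of all transcripts), 15 in 14 plots and 7 in 11 to 13 plots. Every value of time point A lay above every value of time point B for 7 of the 100, against 22 of all transcripts, 0.0561%. These counts restate the selection and were not tested.

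The name "switched off" fits only some of the set. None of the 100 was without reads in all 16 libraries of time point B. There were 17 without reads in at least 12 of these libraries, against 0.286% of all transcripts, and 33 without reads in at least 8. By contrast, 14 had reads in every B library, against 82.5% of all transcripts, and 78 had reads in every A library. The number of the 100 with any read lay between 42 and 86 in the B libraries and between 91 and 100 in the A libraries. Summed over the set, the level was 12.3 to 203 CPM at time point B and 102 to 555 CPM at time point A, a small part of any library.

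The transcripts nearest to a complete loss stood at the top of the order. For c65859_g1 the B libraries held 0 to 3 reads (median 1) and the A libraries 6 to 56 reads (median 36.5). In sum that was 14 reads at B and 563 at A, a ratio of 0.0217 in CPM, and the mean log2 difference was −5.15 ± 1.39 (SD, n = 16 plots). It was the most evenly expressed but for 1 of the 100 at time point A, where its highest plot, eC ring 2, took 9.45% of its summed CPM.

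For c61208_g1 the B libraries held 0 to 3 reads (median 1), and the A libraries 6 to 58 (median 33). Its mean difference was −4.85 ± 1.17 (SD, n = 16 plots). Neither transcript kept its level in any plot: both were lower at B in all 16, C ring 1 included, where c65859_g1 had 1 read at B and 31 at A and c61208_g1 had 1 read at B and 32 at A. Neither has a name in the annotation.

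Next in order came 3 transcripts with few reads at either time. The reads of c68124_g2 were 0 or 1 in each B library, 2 in all, and 3 to 18 in the A libraries (median 7.5), 133 in all, a CPM ratio of 0.0131 with a 95% exact interval of 0.0016 to 0.0483 for counting error only. Transcripts c68795_g1 and c68795_g2 belong to the same component. The first had 0 to 2 reads in the B libraries and 3 to 18 in the A libraries, and the second 0 to 2 in the B libraries and 3 to 14 in the A libraries. All 3 were apart between the time points, with no B value as high as the lowest A value. At 2 to 5 reads over 16 libraries, a further fall at time point B could not have been seen at this depth.

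**Figure D2:**
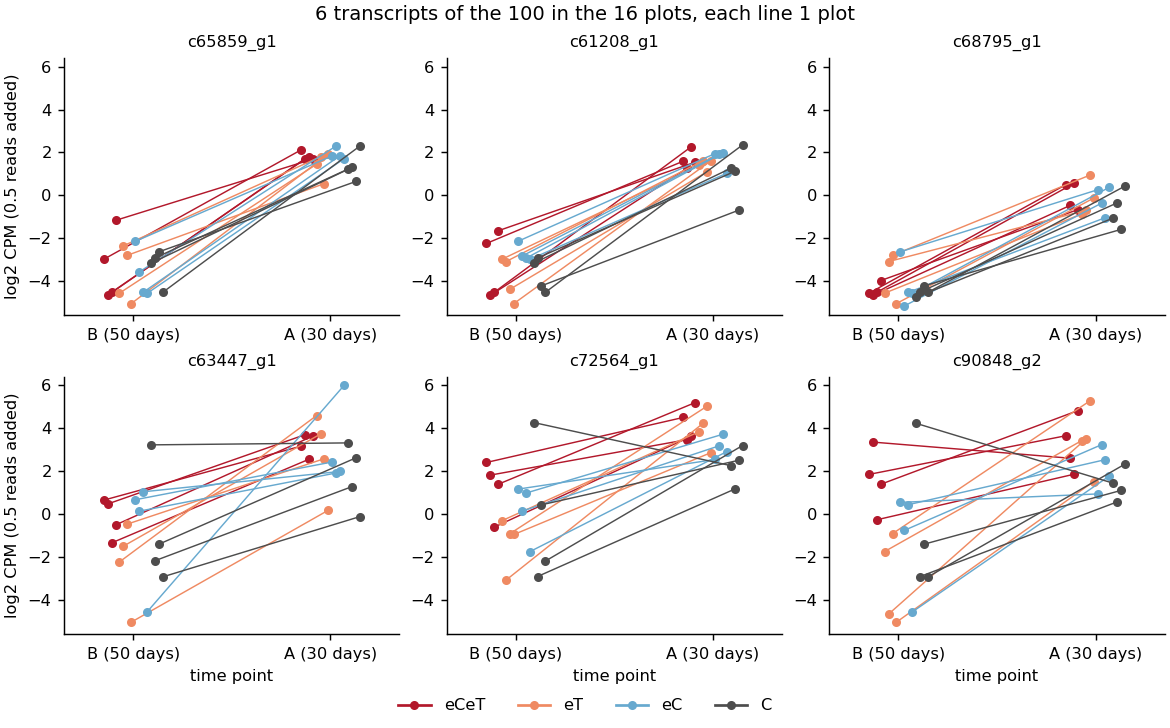
Log2 value of 6 of the 100 transcripts in the 16 plots, time point B left and time point A right, with 1 line for each plot coloured by treatment. In the upper row all lines run up to the right, from B to A; in the lower row 1 grey line, that of C ring 1, stays high at B, with 125 reads of c63447_g1, 258 of c72564_g1 and 251 of c90848_g2, and for c90848_g2 so does the line of eCeT ring 2, with 129 reads.

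The transcripts with the most reads were less uniform between plots. The B libraries held 1 to 258 reads (median 10.5) of c72564_g1, and the A libraries 35 to 493 (median 112.5), the largest sum at time point A (2204 reads). Of its 507 reads at time point B, 258 came from C ring 1, where time point A had given 64 reads. In the other 15 plots it was lower at B. Its best Arabidopsis match was AT2G01300, which the annotation leaves without a name.

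A similar spread was seen for c85108_g1 and c63447_g1. Of c85108_g1 there were 0 to 112 reads (median 9) in the B libraries and 39 to 385 (median 108.5) in the A libraries; it was lower at B in all 16 plots, with a log2 difference of −0.22 in C ring 1. The reads of c63447_g1 were 0 to 125 (median 4.5) in the B libraries and 10 to 517 (median 62) in the A libraries. For both, C ring 1 was the highest library at B in CPM, and eC ring 4, with 0 reads at B, the highest at A.

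Transcripts c76692_g1 and c87644_g4 were also among the 5 with the most reads at time point A, and varied widely between plots. In the B libraries c76692_g1 had 1 to 60 reads (median 9.5), against 3 to 766 (median 39) in the A libraries. For c87644_g4 the B libraries held 1 to 61 reads (median 10) and the A libraries 0 to 751 (median 66.5). Both were highest at A in eCeT ring 4, with 25.7% and 27.6% of their summed CPM, and both were lower at B in only 12 of 16 plots. The groups of the 2 time points thus overlapped widely for them.

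In C ring 1 the set as a whole was not lower at B. Its library had at B 203 CPM of the 100 transcripts and at A 173 CPM, a ratio of 1.17, while the ratio lay between 0.0260 (eC ring 4) and 0.441 (eCeT ring 2) in the other 15 plots. The median difference of the 100 was −0.23 there and −4.29 to −1.37 elsewhere. Over all transcripts the median difference in C ring 1 was 0.01. Of the 100, 53 were lower at B in this plot and 47 were not, and of all transcripts 44.6% were lower there. This plot was the single exception for 29 of the 48 transcripts that were lower in 15 plots. It held 31.3% of the reads of the set at time point B, against 6.23% of all reads of that time point.

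Of the 100, 49 had their highest B level in C ring 1, as did 8.87% of all transcripts, and 52 lay more than 2 log2 units above the median of the other 15 B libraries there, as did 1.55% of all transcripts and 2.76% of the 16025 candidates. The largest such reads were those of c72564_g1, of c90848_g2 (251 of 511 reads at B, against 36 in the same plot at A), of c71933_g2 (219 of 352, against 60 at A) and of c91123_g1 (192 of 390). For c90848_g2 the other 15 B libraries held 0 to 129 reads, the 129 in eCeT ring 2. Transcript c96591_g1, chosen after its values were seen, ran the other way, with 0 reads at B and 33 at A in C ring 1. For c96591_g1, however, 6 of the 16 B libraries had no reads, so C ring 1 was not alone in this. The library lay above the median of the B libraries for 77 of the 100, as it did for 49.6% of all transcripts. By this measure C ring 1 was not particular, since eCeT rings 1, 2 and 4 lay above the median for 80, 78 and 77 of the 100. Over all other transcripts the library of C ring 1 lay nearer to the B libraries. Why it differed was not tested.

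After C ring 1, the B libraries with the highest summed level were eCeT ring 2 (100.2 CPM) and eCeT ring 1 (85.3 CPM), with 8 and 13 of the 100 at their highest there. Together they held 26.2% of the reads of the set at time point B. The remaining 13 B libraries had 12.3 to 45.3 CPM. Without C ring 1 the median difference of the 100 was −2.92, and 89 of the 100 would have been selected again.

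**Figure D3:**
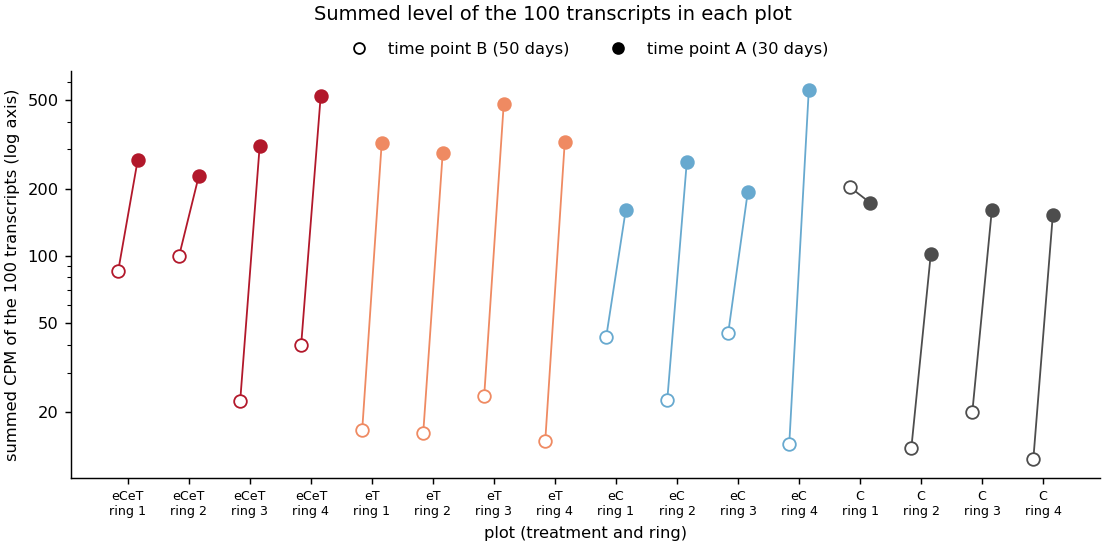
Summed CPM of the 100 transcripts (log axis) in each of the 16 plots, open circles for time point B and filled circles for time point A, with a line joining the 2 libraries of a plot. The 15 lines other than that of C ring 1 rise to the right; in C ring 1 the level was 203 CPM at B and 173 CPM at A.

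At time point A the set was unevenly spread over plots. Its summed level averaged 332 ± 131 CPM in eCeT plots, 353 ± 85.6 CPM in eT plots and 293 ± 180 CPM in eC plots, against 147 ± 31.2 CPM in C plots (SD, n = 4 each). All 4 eCeT plots (227 to 521 CPM) and all 4 eT plots (290 to 480 CPM) lay above the 4 C plots (102 to 173 CPM), while the eC plots (161 to 555 CPM) overlapped with C. The sums at time point B were 61.9 ± 36.8 CPM in eCeT, 17.8 ± 4.00 CPM in eT and 31.4 ± 15.3 CPM in eC, against 62.1 ± 93.7 CPM in C (SD, n = 4 each), and the mean of C rested on ring 1, since its other 3 plots had 12.3 to 19.9 CPM.

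Of the 100, 63 had their highest A level in 1 of 3 plots, namely eC ring 4 (27), eT ring 3 (21) and eCeT ring 4 (15). The same 3 plots held the highest level of 23.0% of all transcripts and of 26.2% of the candidates. They were picked after the counts of the 100 were seen, and that choice enlarges the contrast. Of the library of eT ring 3 only 6148491 reads were recovered, the fewest of the 32, and its part in these counts was not tested. By treatment, 26 of the 100 were highest at A in an eCeT plot, 32 in an eT plot and 36 in an eC plot, against 6 in a C plot. Each of these counts covers 4 plots and cannot be set against the share of a single plot. In single plots 2 to 15 of the 100 were highest in eCeT, 1 to 21 in eT, 1 to 27 in eC and 1 to 3 in C. Of all transcripts, a single eCeT plot was the highest for 4.21% to 7.63% and a single eT plot for 3.84% to 10.5%. For single eC plots the share of all was 4.34% to 10.3%, and for single C plots 4.10% to 7.37%.

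The 27 transcripts that peaked in eC ring 4 were followed through the other libraries. Their summed level at time point A was highest in that plot, with 443 CPM, which the choice of these 27 fixes, and 27.4 to 184 CPM in the other 15. In turn eC ring 4 had the lowest of their sums at B, 2.10 CPM, and C ring 1 the highest, 101 CPM. Selection on B minus A favours a low B value in a plot with a high A value, so the low sum is no separate observation. For 22 of the 27, C ring 1 was the highest B library, as it was for 8 of the 21 that peaked in eT ring 3 and 9 of the 15 that peaked in eCeT ring 4. The most uneven member was c88287_g3, with 0 to 25 reads (median 1.5) in the B libraries and 3 to 403 (median 21) in the A libraries, of whose summed CPM at A eC ring 4 took 63.7%. For c90220_g3 the same plot took 50.5%, and for c41968_g1 eT ring 3 took 49.8%.

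**Figure D4:**
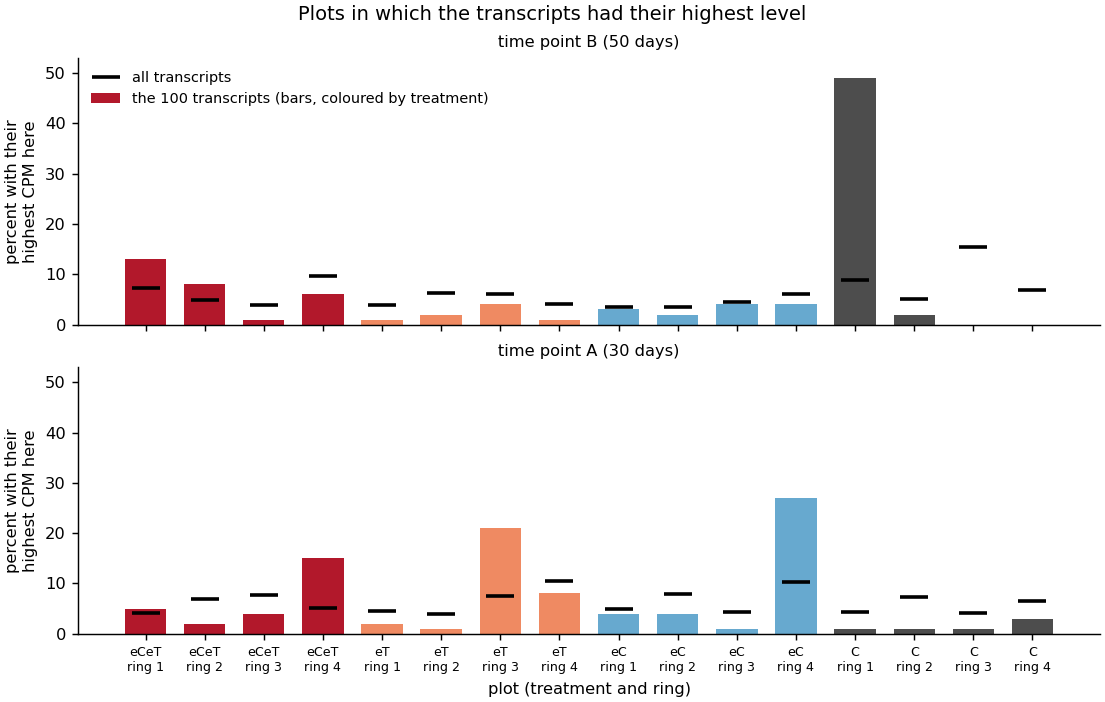
Percent of the 100 transcripts (bars, coloured by treatment) and of all 39208 transcripts (black dashes) that had their highest CPM in each plot, for time point B (upper panel) and time point A (lower panel). At B the bar of C ring 1 reaches 49 percent against 8.87 percent of all transcripts; at A those of eC ring 4, eT ring 3 and eCeT ring 4 reach 27, 21 and 15 percent.

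At the even end stood c65859_g1, c79725_g2 and c68441_g1. The reads of c79725_g2 were 0 to 16 (median 2.5) in the B libraries and 7 to 26 (median 18) in the A libraries, and no A plot took more than 8.99% of its summed CPM. For c68441_g1 they were 0 to 7 (median 1.5) in the B libraries and 5 to 24 (median 14.5) in the A libraries, without overlap of the log2 values. Between members, Spearman's rho over the 16 A libraries had a median of 0.13 and over the 16 B libraries of 0.28, as a description of transcripts that share the same libraries and their depths.

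Differences between treatments were tested with limma over all 39208 transcripts and called at an adjusted p (Benjamini-Hochberg) under 0.1. Beside limma stand the counts of voom, which weights each recovered read count by its expected precision. The comparisons of eCeT, eT and eC with C at a time point share the same 4 C plots. For eCeT against C at time point A, 1 of the 100 was called, against 549 of all transcripts, 1.4%. At an unadjusted p under 0.05 there were 13 of the 100 (12.5% of all transcripts), 12 of them higher in eCeT (5.77% of all). The median log2 fold change of the 100 was 0.93, with 84 above 0, and that of all transcripts was 0.02, with 52.3% above 0.

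Between eT and C plots of time point A, the limma fit called 0 of the 100, against 0.0485% of all transcripts. There were 17 with an unadjusted p under 0.05 (10.3% of all), 15 of them higher in eT (4.84% of all), and voom also called 0. The median log2 fold change of the 100 was 0.95, with 85 above 0 (51.1% of all transcripts). Between eC and C plots of time point A, both limma and voom called 0 of the 100, limma called 0% of all transcripts, and 8 of the 100 had an unadjusted p under 0.05 (7.9% of all), all 8 higher in eC (3.92% of all). The median log2 fold change of the 100 was 0.59, with 76 above 0 (48.9% of all transcripts). These medians compare with a median standard error of 0.84 for a single member. By group means of log2 values, C was the lowest of the 4 treatments at A for 64 of the 100, as it was for 26.3% of all transcripts.

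For warming at time point A, the mean of eCeT and eT plots minus the mean of eC and C plots, limma called 3 of the 100, against 3.77% of all transcripts; 2 were higher in warmed plots (1.44% of all) and 1 lower (2.32% of all). There were 28 with an unadjusted p under 0.05 (15.6% of all), 25 of them higher in warmed plots (7.6% of all). Voom called 5 of the 100 (0.722% of all), and with ring as a block limma called 8 (4.84% of all). Without 1 library the count was 6 (eCeT ring 2, 3.43% of all), 10 (eT ring 1, 5.01%) or 1 (eT ring 3, 1.91%). It was 6 without eC ring 1 (4.86% of all), 5 without eC ring 2 (2.45%) and 6 without eC ring 3 (3.05%). Without C ring 3 it was 1 (2.86% of all), and without any other library 2 to 4 (1.99% to 4.09%). The median log2 difference of the 100 was 0.54, with 78 above 0 (52.7% of all transcripts). For elevated against ambient [CO2] at time point A, limma and voom called 0 of the 100, limma called 0% of all transcripts, and 5 of the 100 had an unadjusted p under 0.05, against 7.56% of all, with a median log2 difference of 0.29.

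The transcript called in eCeT was c78858_g1, matched to the Arabidopsis locus AT3G52970, the cytochrome P450 CYP76G1. Cytochromes P450 are haem enzymes that insert oxygen into small molecules, and in Arabidopsis other members of the CYP76 family oxidise monoterpene alcohols. At time point A its level was 2.91, 1.69, 5.06 and 14.7 CPM in the eCeT plots of rings 1 to 4 and 0.52, 0.81, 0.38 and 2.18 CPM in the C plots. C ring 4 thus overlapped with the lowest eCeT plot. The log2 fold change was 2.44 ± 0.62 (SE), with a limma adjusted p of 0.0650.

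In the eT plots c78858_g1 had 1.99, 2.62, 10.4 and 3.97 CPM at time point A, a log2 fold change over C of 2.25 ± 0.62 (SE) that was not called (limma adjusted p = 0.160), and in the eC plots it had 2.48, 5.36, 2.70 and 0.86 CPM, with a log2 fold change of 1.57 ± 0.62 (SE, limma adjusted p = 0.548). For warmed against unwarmed plots the log2 difference was 1.56 ± 0.44 (SE, limma adjusted p = 0.0588). The warmed plots held 20 to 198 reads (median 37.5) and the unwarmed plots 4 to 45 (median 19).

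Both calls of c78858_g1 were near the threshold. That of eCeT against C was lost without the library of eCeT ring 3 (adjusted p = 0.142), eCeT ring 4 (0.203), C ring 1 (0.106), C ring 2 (0.208) or C ring 3 (0.149) at time point A, with voom (0.114), on the deposited FPKM, values per transcript length and depth (0.157), and with only the A libraries (0.117), and over all alternatives its adjusted p ran from 0.0418 to 0.208. That of warming was lost without eCeT ring 4 (0.130), eT ring 3 (0.146), eC ring 4 (0.127) or C ring 3 (0.115), with array weights, which count variable libraries less (0.111), and with only the A libraries (0.101), within a range of 0.0302 to 0.146. In the B libraries the transcript had 2 to 21 reads each and a mean of 0.95 ± 0.51 CPM in eCeT, 0.36 ± 0.12 in eT and 0.45 ± 0.23 in eC, against 0.29 ± 0.11 CPM in C (SD, n = 4 each), and no comparison was called there.

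For c66037_g2, which has no name, the warmed plots held 1 to 24 reads (median 11.5) at time point A and the unwarmed plots 0 to 7 (median 2.5). The log2 difference was 2.44 ± 0.68 (SE, limma adjusted p = 0.0591), on a scale where 0.5 reads are added. Its call was lost without eCeT ring 3 (0.105), eT ring 3 (0.139), eT ring 4 (0.133), eC ring 4 (0.119), C ring 2 (0.102) or C ring 3 (0.119), with array weights (0.109) and on the FPKM table (0.164), within a range of 0.0193 to 0.164. It had 0 to 4 reads in each B library. The other transcript of its component, c66037_g1, had 622 reads at B and 1285 at A, a mean difference of −1.24.

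The only member called lower in warmed plots was c68587_g1, also without a name. At time point A it had 0 to 5 reads (median 1) in the warmed plots and 2 to 18 (median 8.5) in the unwarmed plots, and a log2 difference of −2.24 ± 0.53 (SE, limma adjusted p = 0.0244). This call kept an adjusted p of at most 0.0617 when any 1 A library was left out, and of the alternatives run it was lost only on the FPKM table (0.114). Reads were found in 2 of the 16 B libraries, 3 in eCeT ring 1 and 2 in eC ring 3.

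**Figure D5:**
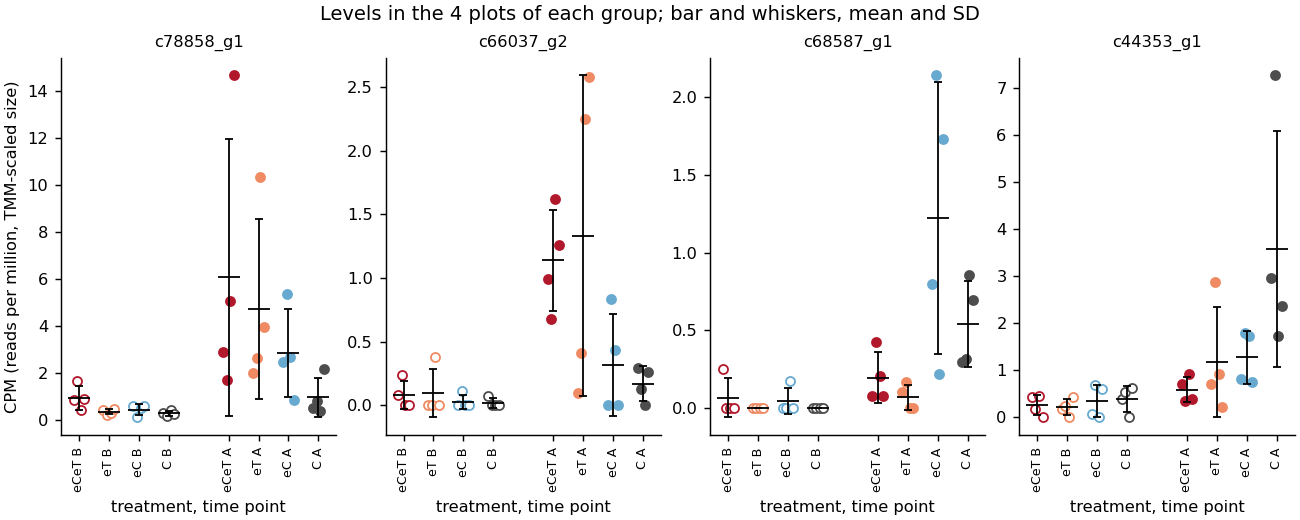
CPM of 4 members in the 4 plots of each treatment at time point B (open points) and time point A (filled points), with the mean and SD of each group as bar and whiskers, each panel with its own axis from 0. At A, c78858_g1 and c66037_g2 have higher and c68587_g1 lower means in warmed (eCeT, eT) than in unwarmed (eC, C) groups, with overlapping plots, and c44353_g1 reaches its highest value, 7.28 CPM, in a C plot.

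The third member with an Arabidopsis match was c44353_g1, annotated as a protein of the peroxidase superfamily (AT3G50990). Peroxidases of this kind are secreted enzymes that oxidise phenolic compounds with hydrogen peroxide, in lignin formation and in defence. At time point A it had 0.58 ± 0.27 CPM in eCeT, 1.17 ± 1.17 in eT and 1.26 ± 0.57 in eC, against 3.57 ± 2.52 CPM in C (SD, n = 4 each), a log2 fold change of −2.43 ± 0.87 (SE) for eCeT that was not called (limma adjusted p = 0.207). C was thus its highest treatment at A by group means, which held for 6 of the 100 and for 24.9% of all transcripts. In each B library it had 0 to 12 reads. With 5 reads added in place of 0.5 the eCeT difference was called (−1.87, limma adjusted p = 0.0263).

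Few reads were left to compare at time point B. For eCeT against C, limma and voom called 0 of the 100, against 0.309% of all transcripts by limma. An unadjusted p under 0.05 was found for 9 (all transcripts 10.3%). The median log2 fold change of the 100 was 0.61, with 82 above 0 (47.7% of all transcripts). The count of called members was 2 without C ring 1 (0.921% of all) or without eCeT ring 3 (1.99% of all). For eT against C both tools called 0, against 0.0179% of all by limma, 12 had an unadjusted p under 0.05 (7.26% of all), 10 of them lower in eT (3.23% of all), and the median was −0.57. For eC against C both called 0, with 0% of all called by limma, 3 had an unadjusted p under 0.05 (6.51% of all), and the median was −0.13. For warming both called 0, against 0.0459% of all by limma, 6 had an unadjusted p under 0.05 (7.46% of all), and the median was 0.10. By group means of log2 values at B, eCeT was the highest treatment for 71 of the 100, as it was for 26.1% of all transcripts, and eT the lowest for 55, as it was for 21.4%.

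The difference between time points was also set against the treatments. The median of the 100 was −2.42 in eCeT, −3.82 in eT and −3.07 in eC, against −2.18 in C. The value of C included ring 1 with −0.23, while its rings 2 to 4 were at −2.99 to −2.68. That of eCeT was mixed too, with −1.72 and −1.37 in rings 1 and 2 and −4.03 and −3.21 in rings 3 and 4. Single plots were at −4.29 to −3.04 in eT and at −3.67 to −2.04 in eC. Between warmed and unwarmed plots, limma and voom called a different change over time for 0 of the 100 and limma for 0% of all transcripts. There were 12 with an unadjusted p under 0.05 (5.89% of all), 9 of them with the more negative change in warmed plots (2.75% of all), and the median difference in change was −0.56. For elevated against ambient [CO2] both tools called 0 of the 100, limma 0% of all, and 1 had an unadjusted p under 0.05, against 4.55% of all. The smallest limma adjusted p was 0.806 for warming and 0.983 for [CO2].

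Rings were compared at time point A with treatment in the model. By limma 0 of the 100 were called, against 0.0383% of all transcripts, 7 had an unadjusted p under 0.05 (6.67% of all), and voom called 1, c41968_g1 (adjusted p = 0.0571). The smallest adjusted p by limma was that of the same transcript, 0.240. Its A libraries held 0 to 107 reads (median 8.5), with 103 in eCeT ring 3, 107 in eT ring 3, 24 in eC ring 3 and 18 in C ring 3. In each of the 4 treatments the plot of ring 3 was thus the highest, and its B libraries held 0 to 11 reads (median 2).

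In 3 components 2 members each were found. For c69359_g1 and c69359_g2, rho over the 32 libraries was 0.94 and over the 16 A libraries 0.84, and for c79394_g1 and c79394_g2 it was 0.88 and 0.87. For c68795_g1 and c68795_g2 it was 0.84 over the 32 libraries but −0.03 over the 16 A libraries, where their reads were few. Transcripts of 1 component can share reads, so these pairs are not separate measurements. The components of the 100 held 38 further transcripts, of which 32 were lower at B, 14 of them by more than 1 log2 unit and 1 higher by more than 1, while 4.27% of all transcripts were lower by more than 1. The median difference of the 38 was −0.63, against 0.05 over all transcripts. The most reads at time point A among these 38 were those of c88715_g2, with 14701 reads at B and 22349 at A and a mean difference of −0.81. The most negative difference was that of c79382_g2, −2.73, with 1761 reads at B and 5345 at A. Most members, 70 of 100, were the only transcript of their component, as were 56.0% of all.

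Members were shorter than other transcripts at the median. The effective length implied by reads and FPKM, read pairs per kilobase of transcript and per 1000000 mapped, had a median of 456 bases for the 96 that could be computed, against 585 bases for candidates and 925 bases for all transcripts. Under 500 bases were 55.2% of these members, 42.7% of candidates and 24.1% of all transcripts. The mirror set, the 100 transcripts with a mean below 0 at time point A and the largest rise to B, had a median of 1084 bases and smaller differences of B minus A, with a median of 2.17 and a range of 1.98 to 3.41.

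Just inside the limit of the selection were c2105_g1, c84698_g1 and c78170_g1, each with a mean difference of −2.36, and 11, 8 and 21 reads at B against 64, 61 and 103 at A. Just outside were c84626_g1, c71623_g2 and c59104_g3, each at −2.35, with 194, 49 and 13 reads at B against 342, 194 and 85 at A. The limit cut through a continuous range of values.

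The time points were also compared for named genes. Lists of 57 transcripts with Arabidopsis names were drawn from those the study picked on these same libraries, so they are no independent evidence. By limma, 19.9% of all transcripts were lower and 23.3% higher at B than at A. Called lower at B were 10 of 10 heat shock proteins and co-chaperones, which keep other proteins folded under heat (median log2 difference −1.43), 11 of 11 pathogenesis-related proteins, secreted in defence (−1.28), and 3 of 8 cytochromes P450 and terpene synthases other than c78858_g1 (−0.67). Called higher at B were 8 of 15 receptor-like kinases and resistance proteins (0.61) and 1 of 3 flowering time genes (0.20), and none of either list was called lower. Of the 4 phenylpropanoid enzymes, 2 were called lower and 1 higher at B (−0.34), and of the 5 photosynthesis transcripts 2 were called lower and 3 higher (0.76). Other than c78858_g1, the most negative differences in these lists, picked after their values were seen, were those of c78721_g1 among the heat shock proteins and co-chaperones, with 783 reads at B and 3003 at A and a log2 difference of −2.27 ± 0.37 (SE, limma adjusted p = 2.33e-05), and of c92299_g1 among the P450 and terpene synthase transcripts, with 263 reads at B and 691 at A and a log2 difference of −2.26 ± 0.41 (SE, limma adjusted p = 8.86e-05).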

How the data were processed

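RNA-seq of leaves of Guinea grass was analysed for 32 libraries. The authors deposited log2 values of 39208 assembled transcripts: the reads plus 0.5, per 1000000 of a library size scaled by TMM, in the form voom gives. Transcripts were assembled with Trinity, and those with few reads and, after voom, extreme outliers had been removed. They also deposited FPKM for 45073 transcripts, of which 29 columns were used, since the header lines of 3 columns of C contradict each other. Per the labels, bcl2fastq 1.8.4 and CASAVA were used; the aligner and the counting program are not given in the sources used here. The MiSeq pool was not analysed here.

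Each library's lowest log2 value was that of 0 reads, so reads were recovered from the others; of the values up to 1000 reads (96.2% of all), 100% came within 0.02 of a whole number. CPM are these reads over the scaled size. Intervals (95%, exact) and reads of 0 cover counting error only. Effective length was taken from reads and FPKM where a library held at least 10 reads.

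The deposited log2 values were fitted in R 4.3.3 by limma 3.58.1: a single linear model of the 8 groups, variances moderated by empirical Bayes along a mean trend, p-values adjusted by Benjamini-Hochberg over all transcripts, and for rings an F test over the A libraries with treatment as covariate. The procedure was tested on simulated data. Other steps used Python 3.11.15, pandas 2.3.3, numpy 2.4.6, scipy 1.17.1 and matplotlib 3.10.9. The members, the gene lists and the tests were chosen with earlier results of these data known.

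Members are named by rule: the 10 with the most negative difference, the 5 with the most reads at A and the 3 with the most left at B, the 3 just inside and outside the limit, those with an Arabidopsis name, up to 3 called per test (smallest adjusted p), the 3 most even and 3 most uneven at A, and those sharing a component. Other transcripts named were picked after their values were seen. Lists of heat shock proteins and co-chaperones, pathogenesis-related proteins, receptor-like kinases and resistance proteins, cytochromes P450 and terpene synthases, flowering time, phenylpropanoid enzymes and photosynthesis came from the annotation in the study's supplements.

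Alternatives were median centring, quantile normalization, a filter (mean in some group of 1 CPM or more), 5 reads added, voom on the recovered reads, the FPKM table (pseudocount 1), array weights, a random effect of plot, a block for ring, the 16 libraries of a time point, an adjusted p under 0.05, each library left out, and for the selection also no TMM factor and the median over plots. Leaving out C ring 1 from the selection was chosen after seeing the data.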

Additional observations from a re-analysis of the deposited data

Results flagged for a closer look

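In groups of 4 plots, 36 sets of values were checked for a plot far from the other 3, and 4 were found. Chance alone gives about 1 in 20 for independent sets of normally distributed values. The sets here overlap, and 3 of the 4 values found came from 1 library, so the 2 rates cannot be compared. In C at time point B, ring 1 stood apart in all 3 measures of the set: its summed level was 203 CPM against 12.3 to 19.9 CPM in rings 2 to 4, its median log2 value was −0.59 against −2.94 to −2.64, and 81 of the 100 transcripts had reads there against 51 to 55. In eT at time point B, ring 4 had a median log2 value of −5.05, that of 0 reads in this library, against −3.09 to −2.80 in rings 1 to 3, with 47 of the 100 transcripts detected. The cause was not tested for either plot.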

How the results depend on the processing

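The median difference of the 100 stayed between −3.12 and −2.61 when 1 ring was left out and was −1.50 with 5 reads added. Between 78 and 82 of the 100 were selected again without 1 ring, 88 with median centring, 78 with the median over plots, 100 without the TMM factor and 64 with 5 reads added. For eCeT against C at time point A the count of called members was 5 with 5 reads added (1.59% of all transcripts called in the same fit), 3 with array weights (2.68%) and with only the A libraries (0.811%), and 0 with voom (0.0842%), with FPKM (0.0998%) or at an adjusted p under 0.05 (0.459%); it lay between 0 and 1 with 1 library left out. Between eT and C plots of time point A it was 6 with 5 reads added (0.344%). For warming at time point A it was 13 with 5 reads added (3.2%), 9 with only the A libraries (2.85%), 5 with voom (0.722%), 1 with array weights (2.59%) and 1 at an adjusted p under 0.05 (1.64%); it lay between 1 (without eT ring 3, 1.91%, or C ring 3, 2.86%) and 10 (without eT ring 1, 5.01%) with 1 library left out. At time point B the count was 0 to 2 for eCeT against C and 0 to 1 for warming with 1 library left out (the 2 without C ring 1, 0.921%, or eCeT ring 3, 1.99%, and the 1 without eCeT ring 3, 0.755%), and 1 for warming with array weights (1.18%). For rings it was 1 with 5 reads added (0.0689%) and with voom (0.0459%), and 0 to 1 with 1 library left out (1 without eC ring 4, 0.0510%). The cause of these differences was not tested. The deviations of libraries with the same ring number correlated at −0.12 to 0.22, not above 0.1 in every pair, so the samples were not treated as paired. The mean correlation by time point and ring was −0.00 to 0.12 with the same number and −0.12 to −0.08 with other numbers. Other numbers included plots of the same treatment, which centring on group means alone makes correlate below 0. This contrast therefore cannot show whether rings pair. Best correlation with their own number was seen for 18 of 32 libraries, for which no expected share was computed. With the replicate block, 8 members (4.84% of all) were called for warming at time point A, and no other count changed. The depth of 6148491 to 15638548 reads limits all members with few reads.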
